A study of Schmidtea polychroa with 24 samples.

Results

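The start and the end of a time course of early embryogenesis in the planarian flatworm Schmidtea polychroa were compared, 168 h against 4 h after the cocoon was laid. The members were the 3 libraries of each of these times, 6 of the 24 libraries of the course, and all genes that could be tested in them. The other 18 libraries, 3 each at 24, 32, 48, 72, 96 and 120 h, were used to place each change in time. All groups came from a sexual laboratory population kept at 20 °C with no treatment other than the time, and each library was made from polyA RNA of 4 whole cocoons pooled. Replicates are described as biological, and nothing in the labels ties a replicate number at one time to the same number at another.

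A planarian cocoon holds embryos together with a mass of maternally supplied yolk cells. The embryo first forms transitory structures, among them an embryonic pharynx with which it swallows the yolk cells, and builds the definitive body later. RNA from a whole cocoon is therefore a mixture of embryo, yolk cells and whatever else the capsule encloses. A lower level can come from fewer cells of a type or from less RNA per cell, and in whole cocoons these cannot be told apart. The deposited tables carry identifiers of a transcriptome assembly and no gene names, so embryo and yolk cell markers could not be checked, no gene is given a function here, and the genes are described by level, size and timing. An assembler gene is the sum of its isoforms, and levels are given in CPM, counts per 1000000 counts of a library after TMM scaling, which corrects library sizes for differences in composition. CPM takes no account of transcript length, so a class of genes by CPM holds long transcripts at a lower number of molecules than short ones, and the classes by start level are repeated below on a per-length scale.

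Of 22365 assembler genes, 15587 passed the filter on low counts and were tested. The total count ran from 3983288 to 9567933 in the 6 libraries compared and from 1599902 to 4901169 in the 18 others. Ranks of expression across genes correlated with a Spearman coefficient of 0.853 to 0.926 between the 4 h libraries and of 0.970 to 0.981 between the 168 h libraries. The chi-square per degree of freedom of their counts, which weights the genes with many counts, ran from 11.2 to 31.7 at 4 h and from 10.8 to 32.2 at 168 h.

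At 168 h, 8953 of the genes tested (57.4%) differed from 4 h at a Benjamini-Hochberg adjusted p under 0.05 in edgeR's quasi-likelihood test. A total of 4973 rose (31.9%) and 3980 fell (25.5%). Tested against a change of 2-fold instead of none, 6864 genes passed (44.0%), with 3919 higher (25.1%) and 2945 lower (18.9%). The scaling places the median gene at a log2 difference of 0.44, and at 0.61 when DESeq2 size factors replace TMM. All 4973 rising genes lay above the first of these medians and all 3980 falling genes below it.

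Some libraries stood apart, and 1 group of falling genes depended on them. Of the 3980 falling genes, 1117 (28.1%) had no more than 3 counts over the 3 libraries of 168 h. Their presence differed between libraries of the same time. At 4 h, 678 of them had a count in replicate 1, 1117 in replicate 2 and 995 in replicate 3. Replicate 2 alone held 85.0% of their 4 h counts, and their summed level was 1062 CPM in replicate 1, 13223 in replicate 2 and 2032 in replicate 3. Between 4 h and 168 h they went almost unseen in some libraries and were nearly all present in others of the same time. At 48 h 53, 1047 and 880 of them had a count in replicates 1 to 3. The numbers for 72 h were 1098, 1099 and 32, those for 96 h 39, 1103 and 97, and those for 120 h 80, 81 and 1091. The numbers for 24 h were 49, 48 and 281. They were 45, 23 and 36 for 32 h, and 33, 15 and 20 for 168 h. A single isoform made up 73.9% of these genes, against 19.5% of the other falling genes.

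The member of this group with the largest fold, picked out after its values were seen, was measured at 2.39, 539.9 and 16.3 CPM at 4 h. It stood at 303.9 and 397.8 CPM in 48 h replicates 2 and 3, at 260.0 and 282.3 in 72 h replicates 1 and 2, at 130.3 in 96 h replicate 2 and at 230.2 in 120 h replicate 3, and had no count in the remaining 15 libraries. Its adjusted p was 0.0285 in edgeR's quasi-likelihood test. Of the 1117 genes, 71 were called when the 6 libraries were fitted alone, 480 with DESeq2 and 137 without 4 h replicate 2. The fit of the 6 libraries applied the low-count filter anew and tested 12825 genes in place of 15587. Members of the group that did not pass that filter could not be called in it. Without 168 h replicate 1, 2 or 3, 129, 126 and 75 of the 1117 were called. What set the difference between these libraries was not tested, and without names or sequences it could not be checked from which cells or which organism in the cocoon these transcripts come. The count of 3980 falling genes carries that limit, and the medians, the largest changes, the overlap and the timing are given below for these and the other falling genes apart. Leaving them out, 2863 falling genes remained, and 63.5% of 7836 called genes rose, against 55.5% with them. That share leaves out genes near 0 counts among the falls only. Of the rising genes, 2008 had 3 counts or fewer over the 4 h libraries, and 2965 rose from above that, beside the 2863 falls.

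**Figure D1:**
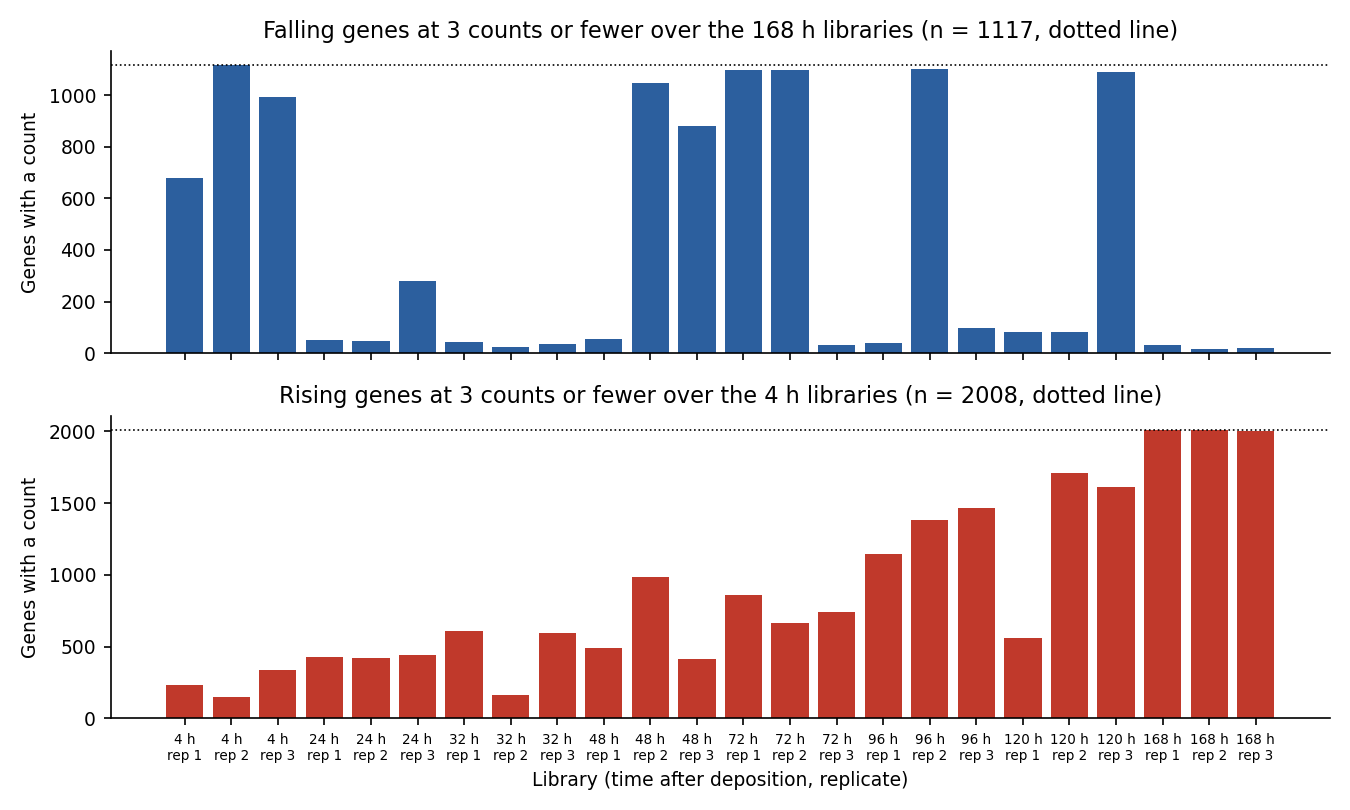
Number of genes with at least 1 count in each of the 24 libraries (bars), for falling genes with 3 counts or fewer in all 168 h libraries together (upper panel) and rising genes with 3 counts or fewer in all 4 h libraries together (lower panel); the dotted line is the size of the group. The upper group switches between nearly all and nearly none within a time, while the lower group climbs from 240 genes on average at 4 h to 2006 at 168 h, with 120 h replicate 1 low at 556.

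Other libraries stood apart as well. In 120 h replicate 1, the share of rising genes past the midpoint of their change was 16.8%, where replicates 2 and 3 had 69.3% and 73.5%, which puts it below all 3 libraries of 72 h. In 48 h replicate 2 that share was 31.7%, against 9.7% and 12.0%. In 168 h replicate 1, the falling genes other than the 1117 summed to 112841 CPM, against 80602 and 84802 in replicates 2 and 3. No cause for these differences was tested.

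The changes were large. The median log2 fold change was 3.07 among rising genes and -2.41 among falling ones, with fold changes shrunk by a prior count of 2. The sizes depend on that setting: the median absolute change of called genes, 2.72, became 3.45 with a prior count of 0.5 and 2.18 with 5. Among falling genes the median log2 fold change was -2.82 in the 1117 library-dependent ones and -2.19 in the other 2863. Among rising genes it was 4.07 in the 2008 with 3 counts or fewer over the 4 h libraries and 2.43 in the other 2965. The absolute log2 change was under 1 in 172 rising and 246 falling genes, 1 to 2 in 964 and 1085, and 2 to 4 in 2312 and 2292. Above that the directions parted: 1167 genes rose and 339 fell by 4 to 6, and 358 rose and 18 fell by 6 or more. Of the falling genes in the last 2 classes, 143 and 14 were library-dependent, which leaves 196 that fell by 4 to 6 and 4 that fell by 6 or more. Of the rising genes in these classes, 768 and 279 started at 3 counts or fewer, which leaves 399 and 79. Changes of at least 16-fold were found in 1525 rising and 357 falling genes in all. The largest fitted rise was 11.3 and the largest fitted fall -8.63, the latter in the library-dependent gene described above.

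The libraries of the 2 times did not overlap in 4956 of the 4973 rising genes (99.7%), beside 46.1% of all genes tested that were higher at 168 h without overlap. They did not overlap in 3398 of the 3980 falling genes (85.4%), beside 27.0% of all genes tested. Of the 2863 falling genes above 3 counts at 168 h, 98.1% did not overlap, and of the 1117 others 52.6%. The called genes were picked on these same libraries, so the lack of overlap is no support for the calls. Among the 6634 genes not called (42.6%), 3042 did not overlap either. Of the genes not called, 634 had a 95% interval of the log2 fold change that lay within 1 in either direction. Another 532 had an absolute log2 fold change of at least 2 that the spread between libraries did not allow to be called. The genes nearest the threshold had adjusted p of 0.04998 inside and 0.0500043 outside it in edgeR's quasi-likelihood test.

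Start level and direction went together. Since the start level is one of the values the fold is made of, this is a description with no test. Of 3146 genes with 3 counts or fewer over the 4 h libraries, 2008 rose (63.8%), and none could fall. Of 1589 genes above that but under 1 CPM, 667 rose and 23 fell. Between 1 and 10 CPM the directions were closer, with 1207 rising and 1590 falling of 5421, and between 10 and 100 CPM 1018 rose and 1213 fell of 3965. Of the 1590 falling genes that started at 1 to 10 CPM, 996 belonged to the library-dependent group.

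Genes with a high CPM at 4 h mostly fell. Of 1378 genes at 100 to 1000 CPM, 1071 fell (77.7%) and 73 rose, and of 88 genes at 1000 CPM or more, 83 fell (94.3%) and none rose. The 83 fell by a median log2 change of -4.16, and 1 of them ended at 1000 CPM or more. Their share of all counts went from 24.1% ± 1.29 to 2.08% ± 0.683 (SD, n = 3). The pattern was much the same per length. The authors' table was taken here as adjusted for transcript length. On it, the highest 20% of genes at 4 h contained 59.4% falling and 10.6% rising genes, against 57.8% and 12.7% by CPM. The lowest 20% held 64.8% rising genes, against 63.5%.

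**Figure D2:**
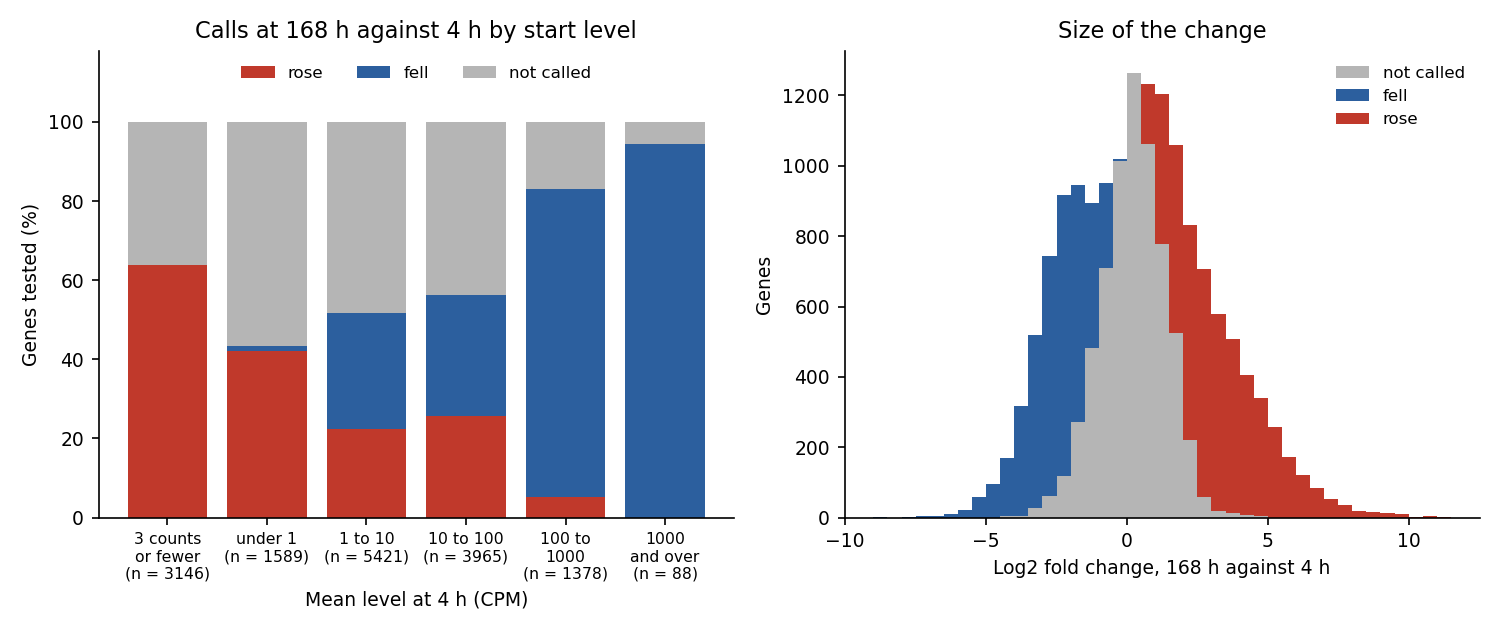
Left, share of genes tested that rose, fell or were not called at 168 h against 4 h (stacked bars, % of genes) by mean CPM at 4 h; right, number of genes by log2 fold change in bins of 0.5, stacked by call. The share that fell grows from 0 in the lowest class to 94.3% in the highest, and the tail of rises is longer than the tail of falls.

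The counts of the cocoon shifted from genes that fell to genes that rose, which were chosen on these same libraries. Genes that fell went from 65.4% ± 1.12 to 14.5% ± 1.83 of all counts (SD, n = 3). Genes that rose went from 5.65% ± 0.637 to 46.4% ± 2.53. The 1525 genes that rose at least 16-fold went from 0.128% to 15.4% of counts, and the 357 that fell at least 16-fold from 23.0% to 1.04%. Genes not called held 28.5% and 38.5%.

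The loss was carried by fewer genes than the gain. Levels here are in CPM after TMM scaling, with factors of 1.07 to 1.21 in the 4 h libraries and 1.48 to 1.69 in those of 168 h. The 168 h values are thus scaled down against those of 4 h, and the sums are not shares of a library. The sizes of loss and gain in CPM therefore cannot be set against each other as the shares of counts above can. The summed level of falling genes went from 587892 to 92751 CPM, and 140 genes made up 50% of that loss and 1039 made up 90% of it. The summed level of rising genes went from 50892 to 295786 CPM, with 295 genes for 50% of the gain and 2295 for 90%. The 1117 library-dependent genes contributed little to the loss, since they summed to at most 13223 CPM in any 4 h library.

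**Figure D3:**
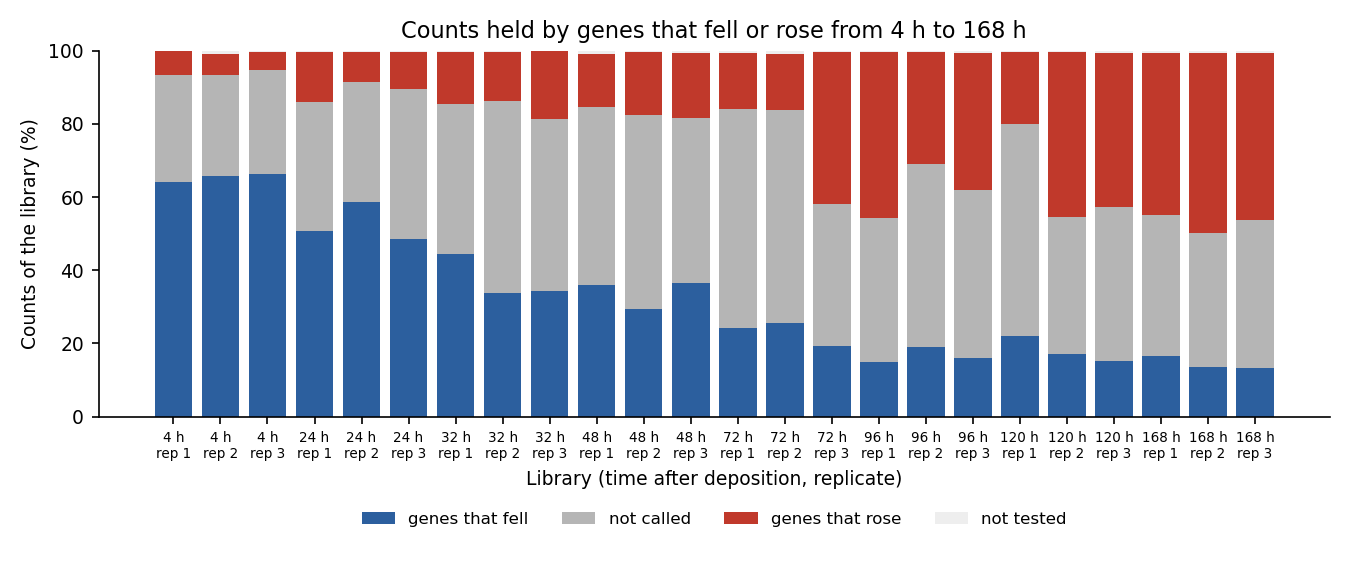
Share of each library's counts (%) held by genes that fell, were not called, rose or were not tested, for the 24 libraries in order of time and replicate. The share of falling genes shrinks from 65.4% on average at 4 h to 14.5% at 168 h, with most of the loss before 96 h, while that of rising genes is at 15.5%, 15.3% and 41.7% in the 72 h libraries and at 37.8% on average at 96 h.

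In the 72 h libraries rising genes held 15.5%, 15.3% and 41.7% of counts, and a single gene, TRINITY_DN244104_c12_g2, held 30.2% of the counts of replicate 3. Their mean at 72 h was 24.1% with that library and 15.4% without it.

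Many rises began at or near 0 counts. A total of 2007 genes had 3 counts or fewer over the 4 h libraries and at least 1 CPM in each 168 h library. No count was found at 4 h for 1359 of them, and the others had 1 to 3. Of the 2007, 1893 were called (94.3%), beside 57.4% of all genes tested. They were picked on the same values that the call uses, so that share is no support for the rises. Of the 2007, 871 reached 10 CPM and 67 reached 100 CPM. Against the level that 3 counts over the 4 h libraries would give, 0.188 CPM, their median rise was at least 44.1-fold. At 168 h their share of counts was 6.73% ± 0.882 (SD, n = 3). At the opposite end, 160 genes had at least 1 CPM in each 4 h library and 3 counts or fewer over the 168 h libraries. All 160 were called, but they were picked in the same way, and they belong to the library-dependent group.

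The rising genes with the largest gain in CPM show these scales. TRINITY_DN244104_c12_g2 gained the most. It stood at 1067, 872.5 and 906.9 CPM in the 4 h libraries and at 30456.8, 5000.8 and 5918 in the 168 h libraries, with no overlap and with replicate 1 of 168 h far above the other 2. Its log2 fold change was 3.86 (SE 1.17, adjusted p 0.00975 in edgeR's quasi-likelihood test).

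Its level at 168 h lay below that of earlier times. It was already at 53666, 15993 and 21498 CPM at 24 h and reached 476283 CPM in 72 h replicate 3. That library had a TMM factor of 0.637, and the gene held 30.2% of its counts. At 120 h its libraries stood at 166504, 55682 and 16057 CPM. Replicates 2 and 3 of 168 h lay below every library from 24 to 120 h.

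The gene ranked next by gain rose from 1345, 701.4 and 521.1 CPM to 3764, 3891 and 3409 CPM. It was at 5630.0, 5688 and 6383 CPM at 96 h and at 919.3, 6806 and 8644 CPM at 120 h, where replicate 1 alone was back at the 4 h level. Its log2 fold change was 2.11 (SE 0.58, adjusted p 0.00535 in edgeR's quasi-likelihood test).

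The 3 genes that followed started close to 0. The gene of rank 3 by gain had 0, 0 and 2.56 CPM at 4 h, and 2227, 2235 and 2688 CPM at 168 h. The gene of rank 4 had 0, 0.321 and 0.698 CPM at 4 h, and 1367, 2058 and 2651 CPM at 168 h. The gene of rank 5 had 0, 0 and 1.16 CPM at 4 h, and 1719, 1671 and 2068 CPM at 168 h.

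All 3 were first clearly present at 96 h, at 77.99 to 295.9 CPM in every library, after at most 9.74 CPM in any library up to 72 h. In all 3 the highest 4 h value was in replicate 3, and the highest 24 h value in replicate 3 of that time. Whether such low values are expression was not tested.

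The gene with the largest rise among those with more than 3 counts in each 4 h library and 10 CPM in each 168 h library was TRINITY_DN240142_c0_g1. It was measured at 0.736, 0.964 and 1.40 CPM at 4 h and at 232.3, 465.7 and 550.9 CPM at 168 h. At 120 h it was still at 0, 0.679 and 1.59 CPM, so its whole rise lay after that time. The log2 fold change was 8.13 (SE 0.79, adjusted p 3.68e-07 in edgeR's quasi-likelihood test).

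The largest loss in CPM was that of TRINITY_DN243583_c1_g2. Its 4 h libraries stood at 24429, 27955 and 33770.1 CPM and its 168 h libraries at 1631, 271.8 and 457.8 CPM. It had not fallen at 24 h, at 29839, 38757 and 34228 CPM, and was at 10764, 11876 and 13302 CPM at 72 h. The log2 fold change was -5.19 (SE 0.76, adjusted p 2.59e-05 in edgeR's quasi-likelihood test).

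The 4 genes ranked next by loss also held high levels at 4 h. That of rank 2 went from 12534, 14699 and 16549 CPM to 464.7, 107.1 and 200.4 CPM, and that of rank 3 from 7259, 9340 and 11317 CPM to 290.4, 57.7 and 97.6 CPM. That of rank 4 went from 10486, 7943 and 9612 CPM to 771.3, 142.6 and 223.5 CPM, and that of rank 5 from 7078, 6243 and 6255 CPM to 350.4, 53.7 and 57.4 CPM. None of the 5 overlapped between the times. In all 5 the highest 168 h value was in replicate 1 of 168 h, and the highest 120 h value in replicate 1 of 120 h.

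The largest fall under the same rule as the largest rise was that of TRINITY_DN228216_c0_g1. It was at 1471, 2618 and 2941 CPM at 4 h and at 53.5, 19.3 and 20.4 CPM at 168 h, a log2 fold change of -6.22 (SE 0.77, adjusted p 5.64e-06 in edgeR's quasi-likelihood test). It fell early, to 121.3, 195.9 and 442.6 CPM at 24 h, and lay between 40.0 and 393.6 CPM from 32 to 120 h.

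**Figure D4:**
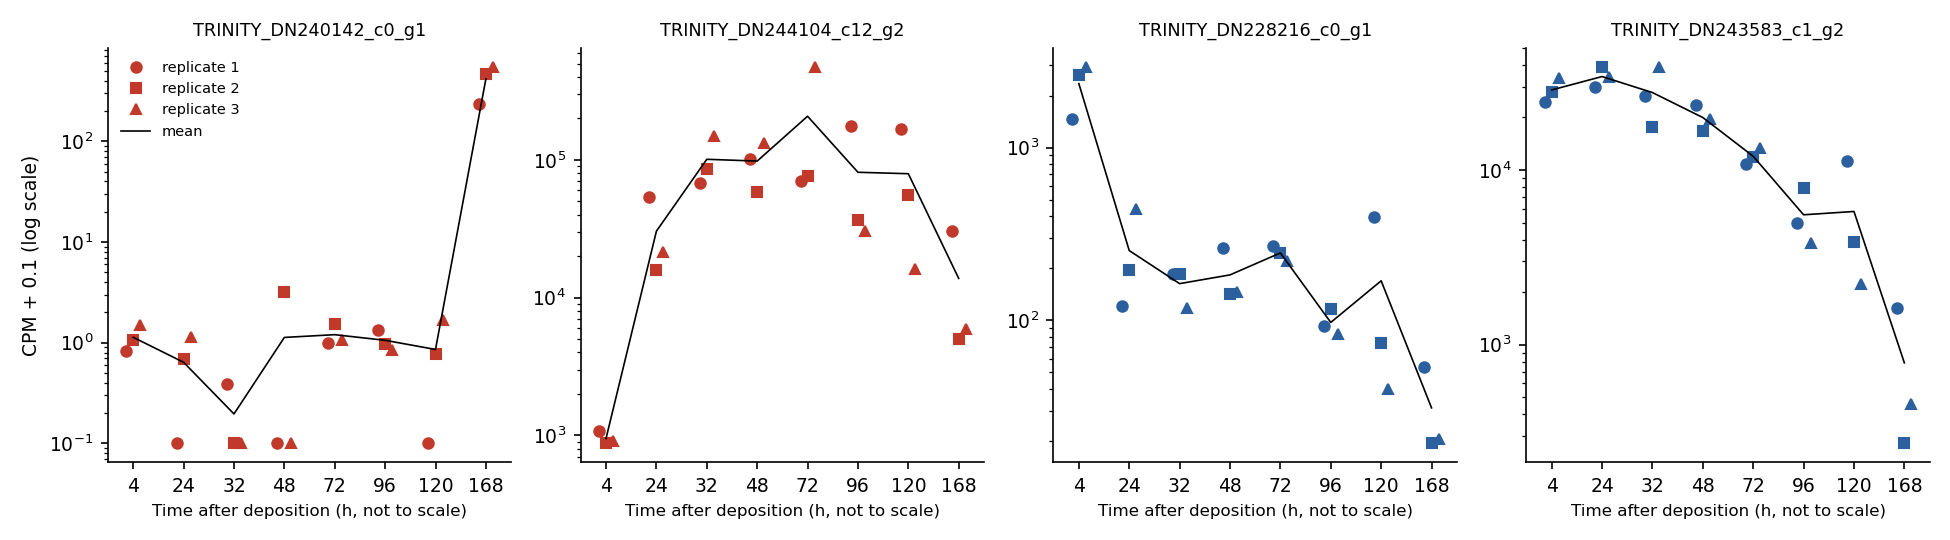
CPM + 0.1 (log scale) in every library of the 2 named rising genes (red) and the 2 named falling genes (blue) against time after deposition; symbols are replicates and the line joins the means of 3 libraries. The genes differ in timing: a rise after 120 h, a rise at 24 h to a maximum far above the 168 h level, a fall at 24 h and a fall that begins after 24 h.

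The midpoint time was the first time after 4 h at which a gene's mean log2 CPM lay at or past the midpoint between its 4 h and 168 h means. It was read for the 8526 called genes whose means differed by at least 1, of which 4808 rose and 3718 fell. The contrast that chose the genes was between 4 h and 168 h, but the filter, the scaling and the spread of that fit drew on all 24 libraries. Genes called in a fit of the 6 libraries alone, added after seeing the data, gave close shares: 27.4% of 5535 rising genes had passed the midpoint by 72 h and 64.6% by 96 h. Of the 2803 falling genes of that fit above 3 counts at 168 h, 37.9% had done so by 72 h and 77.3% by 96 h. No p is given, because the genes share libraries.

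Rising genes passed their midpoint mostly at 96 h and at 168 h. It was reached at 24 h by 282 of 4808 genes (5.87%), at 32 h by 248, at 48 h by 188 and at 72 h by 545. At 96 h 1806 genes followed (37.6%), which brought the share to 63.8%. Another 245 did so at 120 h, and 1494 (31.1%) were past it only at 168 h. The interval from 72 to 96 h was also the largest single step for 2140 rising genes, and that from 120 to 168 h, which is longer, for 1996.

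The numbers at single times depended on single libraries. If 120 h replicate 1 is left out, 638 rising genes passed their midpoint at 120 h, and 1101 did so at 168 h. Leaving out replicate 2 or 3 of 120 h instead gave 158 and 126 at 120 h. The 188 of 48 h became 430 and 399 with replicates 1 and 3 of 48 h left out in turn, and the 248 of 32 h became 411 with 32 h replicate 2 left out. The number at 96 h was not moved by more than 1.5 times by leaving out any 1 library. The libraries of 96 h lay closer together, and the share of rising genes past the midpoint was 57.1% to 62.9% in single libraries.

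Genes that rose from 3 counts or fewer were later than the other rising genes. Of 2002 such genes, 45.3% had passed the midpoint by 96 h and 48.8% did so only at 168 h. Of 2806 others, 77.1% had passed it by 96 h and 18.4% did so only at 168 h. In single libraries of 96 h, 38.1%, 38.2% and 46.0% of the first group and 70.7%, 75.8% and 74.9% of the second were past it, with no overlap. A midpoint on the log scale lies at a higher multiple of the start for larger rises, and the late share also grew with size, from 12.0% of genes that rose by 1 to 2 on the log2 scale to 50.6% of those that rose by 6 or more.

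Falling genes above 3 counts at 168 h also passed their midpoint mostly at 96 h. Of 2612, 262 passed the midpoint at 24 h and 277 at 32 h. Another 87 passed it at 48 h, and 271 at 72 h, so 34.3% had passed it by then. At 96 h 1090 more did so (41.7%), which brought the share to 76.1%. Another 121 followed at 120 h and 504 (19.3%) at 168 h. The last numbers became 432 and 193 if 120 h replicate 1 is left out. The number of 120 h became 69 and 37 with replicates 2 and 3 of 120 h left out in turn, and 209 with 96 h replicate 3 left out. That of 48 h became 139 with 48 h replicate 1 left out. In single libraries of 96 h, 72.7%, 55.6% and 81.8% were past the midpoint.

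Many of the early crossings did not last. An early crossing has more later times at which it can be undone, and one at 120 h has none, so the shares at different times are not comparable. Of the 262 falling genes that passed the midpoint at 24 h, 135 were back above it at a later time, as were 194 of the 277 of 32 h and 203 of the 1090 of 96 h. Among rising genes, 167 of the 282 of 24 h and 201 of the 248 of 32 h fell back, against 179 of the 1806 of 96 h. A gene that first crossed at 96 h could be back only at 120 h, where replicate 1 stood apart. By the last crossing after which a gene stayed past the midpoint, 17.1% of rising and 22.2% of these falling genes had changed by 72 h. That crossing came only at 168 h in 778 of these falling genes, and in 274 without 120 h replicate 1. Without replicates 2 and 3 of 120 h the number was 1116 and 1289. For rising genes the 1952 of 168 h became 1380, 2365 and 2475 in the same order.

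The scale mattered for the falling genes. Read as 50% of the change in CPM instead of in log2 CPM, 56.5% of the falling genes above 3 counts at 168 h had passed the midpoint by 72 h, and 90.6% by 96 h. On that scale 16.2% of rising genes had done so by 72 h and 52.5% by 96 h. A midpoint in CPM is reached after a smaller log2 step in a fall and a larger one in a rise than a midpoint in log2 CPM, so the distance between the directions depends on the scale. In log2 CPM the shares by 72 h were 34.3% of falling and 26.3% of rising genes.

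No midpoint time can be read for the 1117 library-dependent genes. Of the 1106 among them that could be placed, 1067 lay past the midpoint at 24 h and 1066 of those were back above it later. Included with the rest they would put 53.3% of all falling genes past the midpoint by 72 h.

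**Figure D5:**
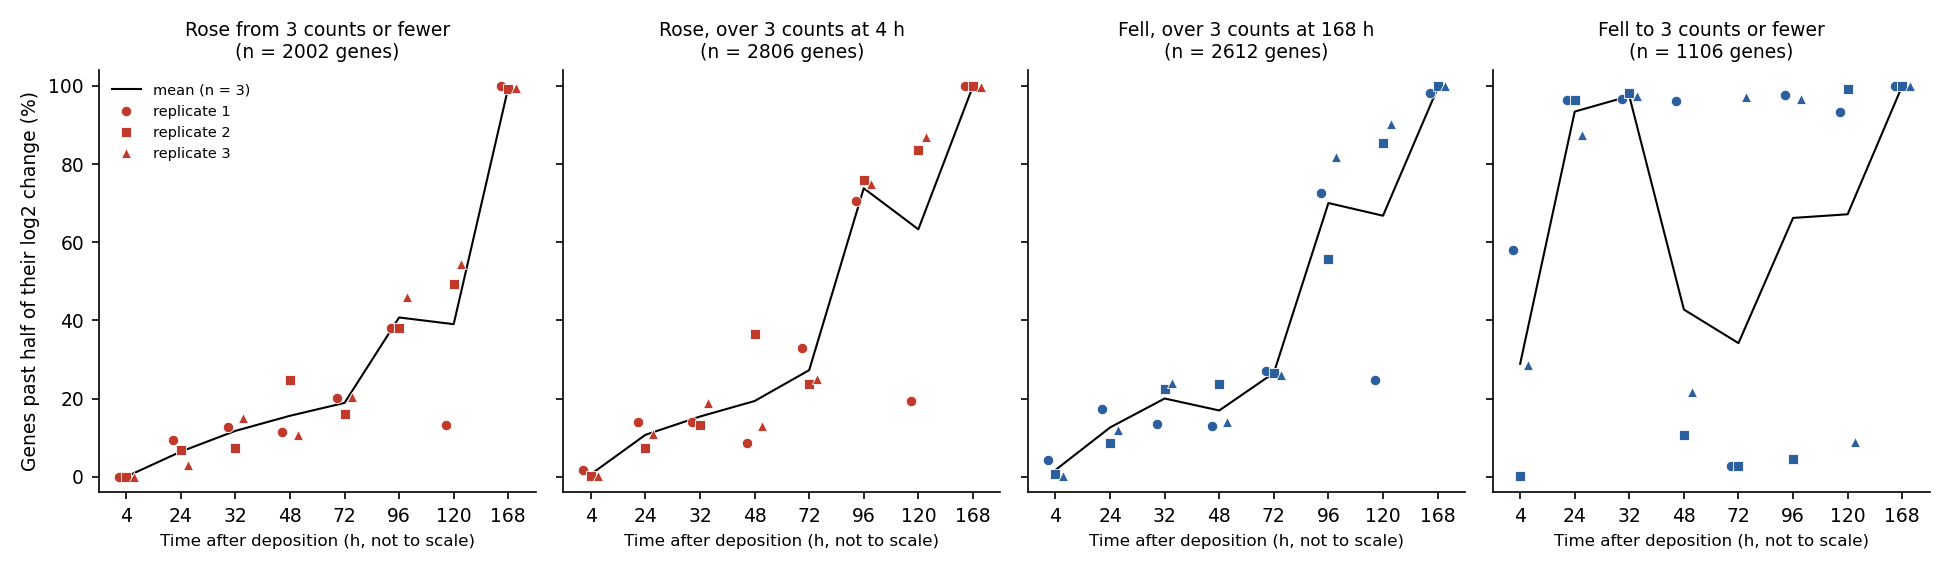
Share of genes (%) at or past the midpoint of their log2 change in each library, by time after deposition, for 2 groups of rising genes (red) and 2 of falling genes (blue); symbols are replicates and the line joins the means of 3 libraries. In the first 3 panels the libraries step up between 72 and 96 h and 120 h replicate 1 lies low, and in the last panel the libraries of 48, 72, 96 and 120 h lie far apart within each time.

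Genes of high level that crossed their midpoint in all 3 libraries of a time illustrate the range. Among rising genes, the one of highest CPM that passed it at 32 h went from 113.8, 55.4 and 61.9 CPM at 4 h to 231.3, 306.1 and 313.5 CPM at 32 h and 587.5, 636.3 and 580.9 CPM at 168 h. The one of 72 h had at most 0.643 CPM at 4 h. It was at 0.355, 175.6 and 0 CPM at 48 h, then at 384.2, 198.8 and 303.8 CPM at 72 h. It rose further to 1646, 1826 and 2041 CPM at 96 h. At 120 h it stood at 167.7, 3105 and 3024 CPM, and it ended at 1003, 718.1 and 882.5 CPM.

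The rising gene of highest CPM that passed its midpoint only at 168 h was flat until then. It stood at 129.3, 95.8 and 93.6 CPM at 4 h, at 71.4, 107.7 and 133.7 CPM at 120 h, and at 1594, 1864 and 1910.2 CPM at 168 h. It had changed by 4.07 on the log2 scale (SE 0.32, adjusted p 1.53e-07 in edgeR's quasi-likelihood test).

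Among falling genes, the one of highest CPM that crossed at 24 h went from 1476, 1027 and 1396 CPM to 487.8, 616.3 and 523.1 CPM, and stood at 487.2, 388.7 and 402.1 CPM at 168 h. That of 72 h declined in steps, from 1702, 1094 and 1336 CPM at 4 h to 430.6, 468.6 and 439.1 CPM at 72 h and 201.6, 167.3 and 164.0 CPM at 168 h. The one of 32 h dropped from 3548, 3383 and 3752 CPM to 937.4, 657.5 and 1626 CPM, was at 621.2, 2295 and 1923.5 CPM at 120 h, and ended at 989.7, 706.3 and 752.4 CPM.

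Not all courses were one-way. Of the 4808 rising genes, 479 exceeded their 168 h mean by 1 or more in log2 CPM at some time between, and 394 of those were highest at 96 h. Without 120 h replicate 1 there were 735, of which 217 were highest at 96 h and 435 at 120 h. A move of at least 1 against the eventual direction was found in 453 rising genes, and 256 of these were farthest off at 32 h. In 32 h replicate 2, 1933 of the 2965 rising genes above 3 counts at 4 h had a count, against 2737 and 2650 in replicates 1 and 3. Without that library 331 rising genes moved against their direction, 116 of them farthest off at 32 h.

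Among falling genes such a move was found in 178 of the 2612 above 3 counts at 168 h, and in 332 of the 1106 library-dependent ones. Of the latter, 304 were farthest off at 72 h, where replicates 1 and 2 held nearly all of these genes and replicate 3 almost none. In 421 rising and 42 falling genes the mean never turned back at any step, and none of the 42 was library-dependent. The 42 became 172 without 120 h replicate 1, 24 and 16 without replicates 2 and 3 of 120 h, and 21 and 89 without replicates 2 and 3 of 96 h.

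Genes of the same assembly component, which may share reads, tended to change together. Of 985 pairs of called genes in the same component, 68.4% had the same direction, beside 50.6% of all pairs of called genes. Such genes are not independent, and counts of genes above include them.

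The number of isoforms per gene was not used by the calls. A single isoform was listed for 32.9% of rising genes, 34.8% of falling genes and 36.7% of all genes tested. The falling genes joined 73.9% of the library-dependent ones with 19.5% of the rest. Among rising genes it was 45.7% of those that started at 3 counts or fewer and 24.2% of the others. These shares are descriptions with no test.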

How the data were processed

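Stranded polyA libraries of whole cocoons were read from both ends for 100 bp, per the labels' protocols. Tools named in the submitters' processing notes are RSEM, edgeR 3.40.2 with limma 3.54.2 in R 4.2.2, Trimmomatic 0.32 and FastQC 0.11.2. The aligner is not given in the sources used here, and no genome was used. The authors deposited expected counts per transcript, estimated from the reads and left unnormalised, per the file headers. A second table deposited by the authors holds TMM-normalised signal per transcript, in a unit the headers do not name, and served for alternatives alone.

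Expected counts were summed over isoforms per assembler gene and rounded. Genes were filtered with filterByExpr on 8 time groups, which kept a median of 99.6% of counts. All 24 libraries were fitted with edgeR 4.0.16 in R 4.3.3 (TMM, glmQLFit, glmQLFTest, and glmTreat for 2-fold). The common biological coefficient of variation was 0.684. Means and SDs are over 3 libraries. Floors of 3 counts and intervals cover counting error or the spread between these libraries only. Chi-square tests of counts gave at least 10.8 per degree of freedom between the 4 h and between the 168 h libraries, so no pair of them looked like a library deposited more than once.

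The members, classes and gene rules were chosen with earlier results of these data known. Named genes were, in each direction, the one with the largest fold among genes that reached 10 CPM in every library of one time and exceeded 3 counts in every library of the other, lower one, and the one with the largest change in mean CPM. Others are given by rank, or as the gene of highest CPM of each half-change time whose 3 libraries all lay past the midpoint, without identifiers. Alternatives were DESeq2 1.42.0, limma 3.58.1, other filters, prior counts and scalings, transcripts in place of genes, and leaving out each library. The fit and the half-change step were tested on simulated data.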

Additional observations from a re-analysis of the deposited data

How the results depend on the processing

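The number of rising genes stayed within 1.5 times its value of 4973 under all 35 alternatives run, from 3519 to 6296, but the other counts did not. At an adjusted p under 0.01, 5668 genes were called, 2149 of them falling, with 3816 past 2-fold (2462 higher, 1354 lower). Fitted as transcripts, 5375 were called, 1795 of them falling, with 3537 past 2-fold (2357 higher, 1180 lower). DESeq2 called 1493 genes lower by more than 2-fold, and 2351 falling genes were called by limma-trend on the table the authors had normalised, so that 70.8% of its calls rose, against 55.5%. The share was 66.6% for transcripts, 64.3% for the 6 libraries alone and 62.3% for DESeq2.

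Leaving out each library in turn gave 6593 to 9816 called genes, 4112 to 5485 rising and 2290 to 4331 falling. Past 2-fold it gave 4735 to 7415, with 3075 to 4301 higher and 1421 to 3152 lower. The falling genes numbered 2589 without 4 h replicate 2, and 2640, 2320 and 2290 without 168 h replicates 1, 2 and 3. Past 2-fold those lower numbered 1723, 1846, 1421 and 1472 in the same order.

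The median absolute log2 fold change of 2.72 became 3.45 with a prior count of 0.5, 2.18 with 5, 2.59 in the 6 libraries alone and 2.95 with DESeq2, and lay between 2.89 and 2.96 without any 1 library of the 2 times.

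Of rising genes, 26.3% had passed the midpoint of their change by 72 h. That became 16.2% in CPM, 17.1% by the lasting crossing, 13.7% where all 3 libraries had to be past it and 18.3% on the authors' table, and 24.8% to 29.1% when 1 library was left out. By 48 h the leave-one-out range was 13.7% to 20.0%. Of all falling genes, 45.9% had done so by 48 h and 53.3% by 72 h. By 48 h this became 58.7% in CPM, 7.88% by the lasting crossing, 25.0% among genes of at least 10 CPM, 29.7% among genes called in the 6 libraries alone, and 24.0% without those at 3 counts or fewer at 168 h. By 72 h it became 15.8% by the lasting crossing, 36.6% among genes of at least 10 CPM and 34.3% without those at 3 counts or fewer. Leaving out 1 library gave 45.0% to 48.7% by 48 h and 51.4% to 55.7% by 72 h. The alternatives without genes at 3 counts or fewer and with genes called in the 6 libraries alone, the fit of 6 libraries with a block and the split by per-length level were chosen after seeing the data.

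No pairing by replicate number was seen: deviations of same-numbered 4 h and 168 h libraries correlated at 0.0447, 0.0202 and 0.0260. Those of differently numbered libraries ran from -0.101 to 0.0733. Deviations within groups of 3 libraries cannot exclude a pairing, and the labels state none. With the replicate block, 8303 genes were called, 4764 rising and 3539 falling. The depth of the 4 h libraries limits falls and rises from under 1 CPM, and of genes with an absolute log2 change under 1, 418 were called and 4048 were not.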
